A study of Vitis vinifera with 219 samples.

Results

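A set of 62 grape genes, of 21425 that could be tested, was chosen by its rise between veraison and the sampling 7 to 11 days after it. Veraison is the point at which grape berries soften, accumulate sugar and, in black cultivars, turn red. The choice used log2(RPKM + 1), where RPKM is a read number divided by gene length and by the mapped reads of the library. Values were averaged in each of 6 cultivar-seasons and then over them. A gene was kept when its mean at day 7 to 11 after labelled veraison exceeded that at day 0 by 1 or more, and when its mean at day 42 to 43 exceeded that at day 21 to 22 by less than 1. The rise at day 7 to 11 reached 1 in 76 genes, 0.355% of those tested, and 66 (0.308%) remained after the later limit. Then 4 genes of anthocyanin synthesis and transport were dropped by name. All 62 passed the filter on low values, which asked for 3 or more libraries with an RPKM of 1 or above. The values that chose the members are given below as a description, without a test. The table gives IDs without descriptions, so members are known here by ID.

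Ripening of the berry follows a switch in transcription around veraison. Hexoses accumulate in the vacuoles of the flesh, organic acids decline, cell walls loosen, and anthocyanins collect in the skin of black cultivars. The MYB regulators of the colour locus turn on the last steps of anthocyanin synthesis, and several NAC transcription factors are studied as regulators of the onset of ripening. Genes that turn on later belong to the ripening phase that follows the colour change. The labelled day of veraison is a field call for a whole vine block, while single berries of a cluster change colour at different times.

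Pericarp of unthinned Vitis vinifera vines grown near Modesto was sequenced in the seasons 2012, 2013 and 2014, with 3 libraries at each of 73 samplings and seeds removed during grinding. Pinot noir (99 libraries) was clone FPS 23 on the rootstock Freedom, planted in 2001, and Cabernet Sauvignon (120 libraries) was clone FPS 8 on the rootstock 5C, planted in 1997. Each library came from 60 berries of 6 clusters, and the 3 libraries of a sampling stand for 3 vine-row blocks. Cultivar, clone, rootstock and vine age cannot be told apart in this design, and both cultivars were black-berried.

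Samplings were grouped by labelled day. Green berries before onset were taken at day -18 to -13 and berries of the onset at day -9 to -6. Day 0 was veraison and day 7 to 11 the post-veraison window. Day 21 to 22, mid-ripening (day 28 to 32), day 42 to 43 and a late window (day 49 to 53) followed. Each window held 1 sampling in each cultivar-season, so 18 libraries in all and 9 per cultivar. In Pinot noir of 2014 the late window took day 49, and the sampling at day 52 was left out of it. Summed RPKM ran from 807469 to 1192349 per library (median 951780), and read counts are not in the table, so depth is unknown. The colour-locus regulator MYBA1 (VIT_02s0033g00410), which marks coloured berry skin, was at 11.6 to 67.2 RPKM at day 21 to 22, against 0 to 0.200 RPKM before onset. In 4 libraries the marker genes of the other cultivar were expressed, and most or all of those of the labelled cultivar were not. The 3 libraries of Cabernet Sauvignon at day -23 of 2014, outside every window, expressed 26 of 26 Pinot noir markers. Of 17 Cabernet Sauvignon markers they expressed 0, 0 and 5. Replicate 2 of Pinot noir at day -14 of 2014, which enters the window before onset, expressed 0 of the 26 and all 17. Whether labels or columns were swapped was not tested. A component holding 5.04% of the variance set all 75 libraries of 2014 and all 12 Cabernet Sauvignon libraries of 2013 from day 43 on apart from the others, with 5 of the remaining 132 on the same side.

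The members rose in 2 ways. One set of 23 passed the mid-ripening rise in Pinot noir only. Up to day 0 the median log2(RPKM + 1) of these 23 was under 1 in all but 5 of 81 libraries. That count keeps the libraries with the other cultivar's markers. The median reached 3.88 in replicate 3 of Pinot noir at day 0 of 2012 and 2.89 in replicate 2 of Cabernet Sauvignon at day -26 of 2013. Single genes of the set could be higher, as VIT_03s0091g00160 with a median of 5.55 RPKM before onset in Cabernet Sauvignon. Another set of 36 rose in both cultivars, and 30 of these were already rising before labelled veraison. The sets were read from the libraries at onset and mid-ripening, which the choice of members did not use, after the values by cultivar had been seen. Of the other 3 members, VIT_09s0002g00440 and VIT_18s0089g01320 passed in Cabernet Sauvignon only and VIT_14s0066g00570 in neither.

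**Figure D1:**
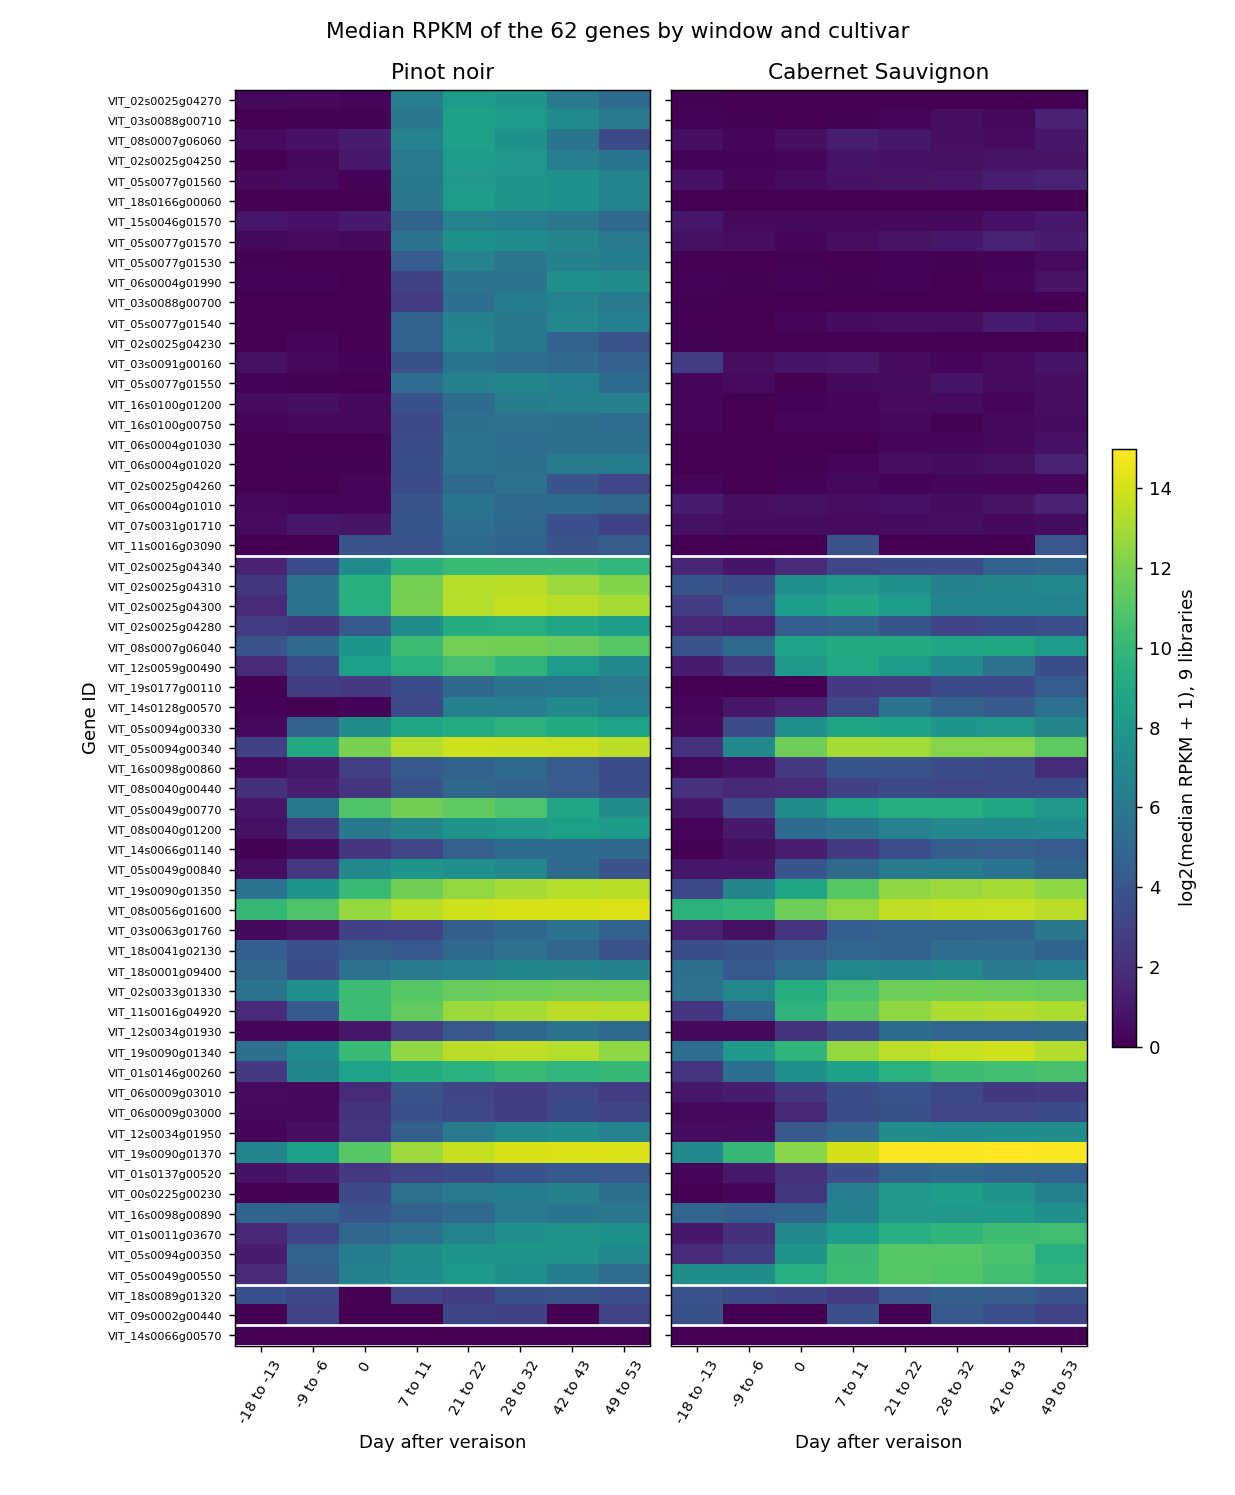
Each row is 1 of the 62 members and each column a window of days after veraison, in Pinot noir (left) and Cabernet Sauvignon (right). Colour gives log2 of the median RPKM of 9 libraries plus 1, white lines part the genes that passed in Pinot noir only (top 23), in both (36), in Cabernet Sauvignon only (2) and in neither (1). The top rows are dark at every window of Cabernet Sauvignon except isolated cells, while the block of 36 is bright in both panels after veraison.

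The mid-ripening comparison asked whether the members were higher at day 28 to 32 than at day -9 to -6. A gene passed when limma gave an adjusted p under 0.05 and its log2 change was 1 or more in size. By that rule 60 of 62 members rose, against 5% of all genes tested, and 0 fell (background 16.4%). Neither window was used in the choice. The members were chosen for a rise between these windows, however, so a high count was likely in advance. The median log2 change of the members was 3.20, and that of all genes tested was -0.22. The members that did not pass were VIT_09s0002g00440, with a log2 change of 0.91, and VIT_14s0066g00570, with 0.98. The members held a growing part of the RPKM of a library. In Pinot noir their median share of summed RPKM was 0.161% before onset, 0.455% at onset, 2.25% at veraison, 6.09% post-veraison and 12.9% at mid-ripening. In Cabernet Sauvignon it was 0.145% before onset, 0.326% at onset, 2.10% at veraison, 4.72% post-veraison and 9.40% at mid-ripening. The share at mid-ripening ran from 7.47 to 16.1% in Pinot noir libraries and from 8.32 to 11.6% in Cabernet Sauvignon libraries, so the cultivars overlapped.

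Each cultivar alone gave different counts for the same comparison. In Pinot noir 59 members rose, against 5.57% of all genes tested, with a median log2 change of 5.01. In Cabernet Sauvignon 38 rose, against 5.26% of all genes tested, with a median of 2.10. The difference of the rise between cultivars was tested itself, as an interaction term, in 62 members. It passed in 39 (background 8.63%), of which 33 rose more in Pinot noir (background 5.51%) and 6 rose less (background 3.13%). The level at mid-ripening differed between cultivars in 43 members (background 9.87%), of which 36 were higher in Pinot noir (background 5.43%) and 7 were lower (background 4.44%). In 29 members the lowest of the 9 Pinot noir libraries at mid-ripening was above the highest of the 9 Cabernet Sauvignon libraries (background 6.3%). In 6 the highest Pinot noir library was below the lowest Cabernet Sauvignon library, a share close to that of all genes tested (background 7.99%). Of the 33 members that rose more in Pinot noir, 22 were among the 23 genes. The steps that chose those genes were larger in Pinot noir than in Cabernet Sauvignon. The counts by cultivar are therefore not separate from the choice of members. Mean sugar content at onset, where the rise starts, was also higher in Pinot noir in each season. Its part in the interaction term was not tested.

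**Figure D2:**
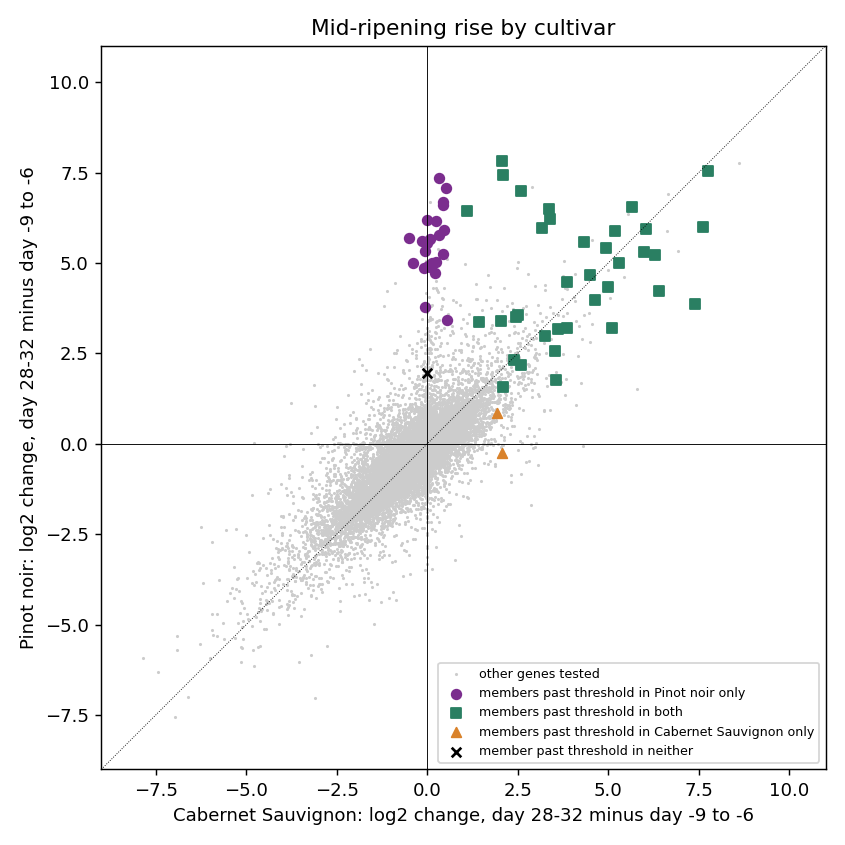
Each point is a gene, placed by its log2 change from day -9 to -6 to day 28 to 32 in Pinot noir (vertical axis) and in Cabernet Sauvignon (horizontal axis), with the dotted line at equal change. The 23 members that passed in Pinot noir only lie between 3.42 and 7.35 on the vertical axis and between -0.51 and 0.54 on the horizontal axis, and the 36 that passed in both (squares) scatter to either side of the line.

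The 23 genes that rose in Pinot noir only had a median log2 change of 5.55 there, with a range of 3.42 to 7.35. In Cabernet Sauvignon their changes ran from -0.51 to 0.54. At mid-ripening their median RPKM ran from 27.2 to 304 in Pinot noir and from 0 to 0.929 in Cabernet Sauvignon. The set was formed from these values, so the difference between cultivars within it is a description. VIT_11s0016g03090 was the one member of the set that did not pass the interaction term, with a difference in log2 change of 2.89 (SE 1.34, limma adjusted p = 0.066). That gene was listed at 0 in 115 of the 219 libraries and never between 0 and 9.29 RPKM, so its values jump. None of the 23 had a mean log2 change of 1 or more in a step before veraison. That they rose in Pinot noir only refers to mid-ripening. In Cabernet Sauvignon of 2012 their median log2(RPKM + 1) was 0.46 at day 32 and 1.28 at day 74. In 2013 it was 0.46 at day 29 and 1.52 at day 63, and in 2014 0.20 at day 28 and 0.47 at day 63.

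VIT_02s0025g04270 showed the contrast at its widest at mid-ripening. In Pinot noir it was at 0, 84.9 and 363 RPKM (lowest, median and highest library) post-veraison, against 0.00376, 0.202 and 57.9 RPKM at veraison. At mid-ripening it was at 22.5, 245 and 381 RPKM in Pinot noir, against 0, 0.00206 and 0.0685 RPKM in Cabernet Sauvignon. The cultivars did not overlap at mid-ripening. The log2 difference was 7.24 (SE 0.39, limma adjusted p = 7.2e-39). The earliest libraries of Cabernet Sauvignon were not all at 0. At day -26 of 2013 the 3 libraries were at 0.784, 15.0 and 5.88 RPKM, the highest group mean of this gene in that cultivar (7.21 RPKM), followed by values near 0 through the rest of the season.

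The 3 libraries of each sampling show when VIT_02s0025g04270 turned on. In Pinot noir of 2013 it was at 120, 85.3 and 84.9 RPKM at day 7, against 0.00376, 0.320 and 0.108 RPKM at day 0. In Pinot noir of 2012 it was at 139, 363 and 54.2 RPKM at day 11, against 0.712, 0.202 and 57.9 RPKM at day 0. In Pinot noir of 2014 it was at 5.94, 0 and 1.70 RPKM at day 7, against 0.659, 0.120 and 0.0914 RPKM at day 0. The samplings of 2013 did not overlap, 1 library at day 0 of 2012 was above the lowest of day 11, and in 2014 the gene was still low at day 7.

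VIT_03s0088g00710 and VIT_05s0077g01560 behaved alike. VIT_03s0088g00710 was at 43.7, 304 and 543 RPKM at mid-ripening in Pinot noir, against 0.0869, 0.463 and 1.49 RPKM in Cabernet Sauvignon. Its rise differed by 7.02 on the log2 scale (SE 0.60, limma adjusted p = 6.6e-21), the largest difference of the 62. VIT_05s0077g01560 was at 39.1, 230 and 637 RPKM in Pinot noir, against 0.0877, 0.893 and 3.13 RPKM in Cabernet Sauvignon. Its rise differed by 6.54 (SE 0.64, limma adjusted p = 3.0e-17). It was not silent in Cabernet Sauvignon, where the highest group mean was 24.9 RPKM, at day -26 of 2013, and the late window reached 14.6 RPKM. The highest group mean in Cabernet Sauvignon stayed under 5 RPKM in 9 of the 23 genes. Day -23 of 2014, whose libraries carried Pinot noir markers, is left out of the highest group means of Cabernet Sauvignon.

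VIT_08s0007g06060 had the second largest post-veraison step of all members, a mean log2 change of 2.41. It was at 1.23, 101 and 405 RPKM post-veraison in Pinot noir, against 0.897, 1.40 and 3.35 RPKM in Cabernet Sauvignon. At mid-ripening it was at 43.8, 196 and 275 RPKM in Pinot noir, against 0.185, 0.508 and 0.961 RPKM in Cabernet Sauvignon. VIT_02s0025g04250 was at 30.7, 256 and 343 RPKM in Pinot noir at mid-ripening, against 0.0892, 0.624 and 1.5 RPKM in Cabernet Sauvignon. Both genes were separated fully by cultivar, with a log2 difference of 6.75 for each.

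**Figure D3:**
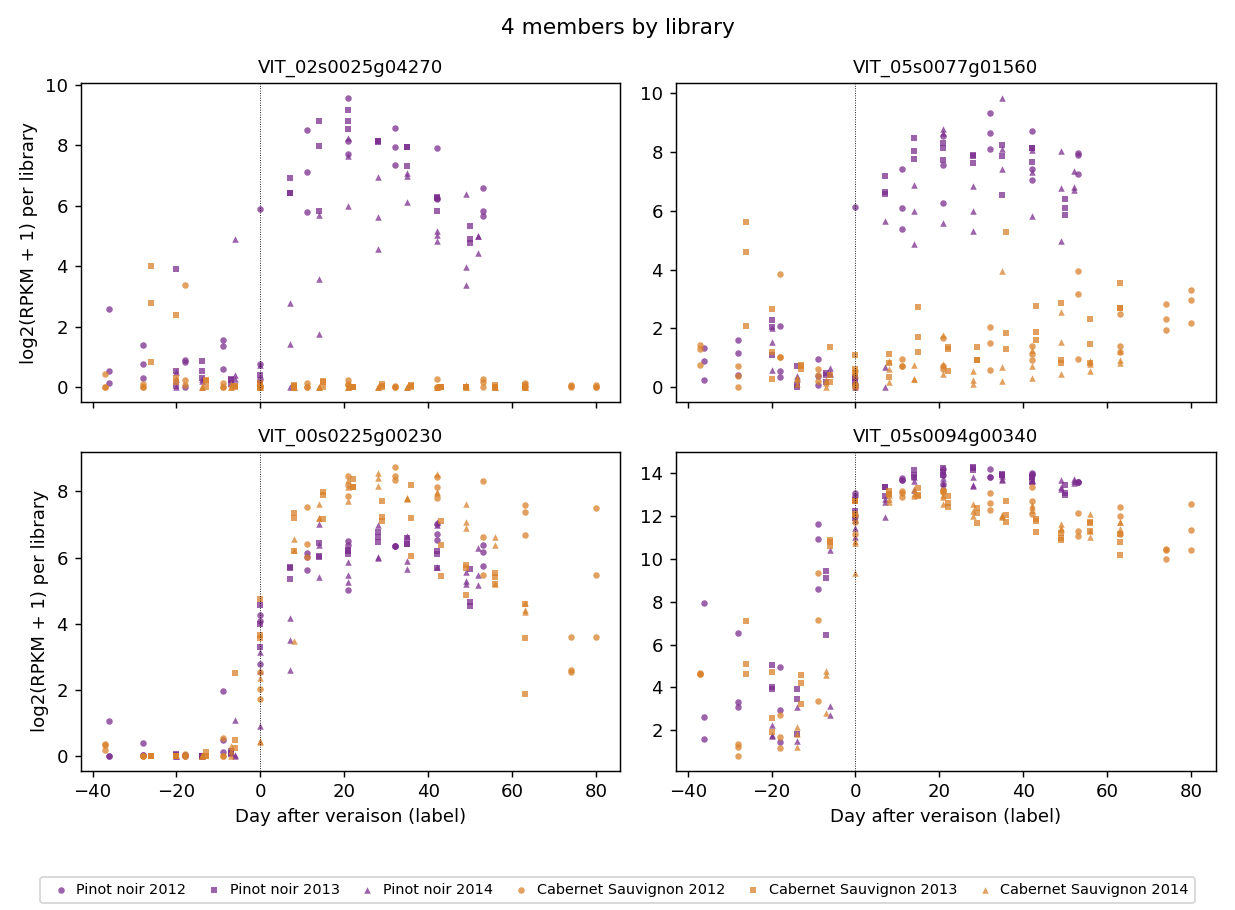
Each point is a library, at its labelled day after veraison (horizontal axis) and its log2(RPKM + 1) (vertical axis), for 4 members, with colours for the cultivar and shapes for the season. The 4 libraries that carry the other cultivar's markers are left out. VIT_02s0025g04270 and VIT_05s0077g01560 pass the mid-ripening rise in Pinot noir only. VIT_00s0225g00230 reaches a higher level in Cabernet Sauvignon, and VIT_05s0094g00340 climbs before day 0 in both cultivars.

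The 36 genes that rose in both cultivars held the abundant members. Their median log2 change was 4.57 in Pinot noir and 3.73 in Cabernet Sauvignon. Of the 39 members that passed the interaction term 17 were in this set, with 11 rising more in Pinot noir and 6 rising less. VIT_19s0090g01370 was the most abundant member. It was at 1882, 7123 and 15440 RPKM post-veraison in Pinot noir, against 740, 2186 and 4973 RPKM at veraison. In Cabernet Sauvignon it was at 7694, 16614 and 24430 RPKM post-veraison, against 1408, 5173 and 7549 RPKM at veraison. Cabernet Sauvignon did not overlap between these days, while Pinot noir did. From onset to mid-ripening the gene rose by 5.17 (SE 0.40, limma adjusted p = 1.0e-25), and its level at mid-ripening did not pass between cultivars (-0.99, SE 0.56, limma adjusted p = 0.12).

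VIT_08s0056g01600 already had a high level before veraison. It was at 955, 1874 and 4182 RPKM at onset in Pinot noir and at 590, 994 and 1741 RPKM in Cabernet Sauvignon. The gene rose by 3.52 to mid-ripening (SE 0.08, limma adjusted p = 4.9e-82), with the smallest spread within samplings of the 62 members (SD 0.255 on the log2 scale). VIT_11s0016g04920 had the largest mid-ripening rise of the members, 7.66 (SE 0.34, limma adjusted p = 4.9e-49). It was at 3189, 8537 and 15134 RPKM in Pinot noir at mid-ripening, against 2.70, 18.2 and 881 RPKM at onset. Cabernet Sauvignon had 5562, 9006 and 12929 RPKM at mid-ripening, against 2.04, 29.0 and 748 RPKM at onset. Neither cultivar overlapped between these windows.

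VIT_00s0225g00230 had the largest post-veraison step, a mean log2 change of 2.81, and reached 1 in each of the 6 cultivar-seasons. It was at 5.01, 48.5 and 69.5 RPKM post-veraison in Pinot noir, against 0.861, 8.74 and 22.6 RPKM at veraison. Cabernet Sauvignon had 10.1, 83.8 and 185 RPKM post-veraison, against 0.338, 4.16 and 26.1 RPKM at veraison. The days overlapped in both cultivars. At mid-ripening it was lower in Pinot noir, at 62.3, 80.7 and 124 RPKM, against 136, 321 and 426 RPKM in Cabernet Sauvignon, without overlap (log2 difference -1.65, SE 0.29, limma adjusted p = 2.9e-07). Only VIT_05s0094g00350 and VIT_19s0090g01370 shared its step of 1 in all 6 cultivar-seasons.

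The members that were lower in Pinot noir also belonged mostly to the 36. VIT_05s0049g00550 was at 62.7, 183 and 364 RPKM in Pinot noir at mid-ripening, against 1566, 1972 and 2985 RPKM in Cabernet Sauvignon (log2 difference -3.67, SE 0.31, limma adjusted p = 6.4e-22). It was already lower in Pinot noir at onset, at 4.32, 20.4 and 59.3 RPKM, against 83.3, 174 and 533 RPKM in Cabernet Sauvignon, and the interaction term did not pass (-0.27, SE 0.44). VIT_05s0094g00350 was at 188, 241 and 273 RPKM in Pinot noir, against 1393, 2119 and 3028 RPKM in Cabernet Sauvignon. Its rise was smaller in Pinot noir, with an interaction term of -3.53 (SE 0.37, limma adjusted p = 1.5e-15). VIT_01s0011g03670 was at 72.9, 189 and 230 RPKM in Pinot noir, against 629, 898 and 1214 RPKM in Cabernet Sauvignon, with an interaction term of -2.19 (SE 0.33). For VIT_01s0146g00260 the interaction term was -1.92 (SE 0.39). Its mid-ripening levels of 725 to 1609 RPKM in Pinot noir and 929 to 1637 RPKM in Cabernet Sauvignon overlapped, however. The onset window that these terms start from differed in sugar content. Its mean was 3.58, 2.97 and 1.34 g/dl in the successive seasons of Pinot noir, against 1.55, 2.00 and 0.56 g/dl in Cabernet Sauvignon. Whether this difference at onset set the smaller rises in Pinot noir was not tested.

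The label of genes that rise after veraison held for part of the members. By mean changes over the 6 cultivar-seasons, 30 members were already higher by 1 or more on the log2 scale in the step from onset to veraison or in the step before it, against 2% of all genes tested. At veraison 30 members were higher than at onset by 1 or more (background 1.45%) and 0 were lower by that much (background 2.75%). In the step before it 17 were higher (background 1.37%) and 2 lower by that much (background 1.56%). A further 31 members were flat over both steps, and VIT_03s0091g00160 dipped. All 30 early ones rose in both cultivars. The step into onset (day -9 to -6 against day -18 to -13) used no library of the choice, though the members were chosen as genes that rise in ripening. There 19 members passed (background 2.89%). Of these 17 rose (background 1.35%), all among the 36, and 2 fell (background 1.54%). The largest rise was that of VIT_05s0094g00340, at 5.44, 552 and 3142 RPKM at onset in Pinot noir, against 1.26, 6.70 and 30.2 RPKM before onset. Cabernet Sauvignon had 6.03, 139 and 1896 RPKM at onset, against 1.26, 3.41 and 23.0 RPKM before onset. The windows overlapped in both cultivars, and the log2 change was 4.98 (SE 0.33, limma adjusted p = 1.6e-29).

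VIT_01s0146g00260 followed at 3.48 and VIT_05s0094g00330 at 3.27. VIT_18s0001g09400 fell at onset by 1.46 and VIT_03s0091g00160 by 1.20 on the log2 scale. These calls measure the spread of libraries within samplings. When the 6 cultivar-season differences served as the replicates, limma called 0 members at onset, with 25 at an unadjusted p under 0.05, and 50 members in the mid-ripening rise. Without the library of Pinot noir that carried the other cultivar's markers, 18 members rose and 2 fell at onset.

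The labels give sugar content per library, and the levels of both sets can be read against it. Libraries with the other cultivar's markers are left out of the sugar ranges. Below 1 g/100 ml the median log2(RPKM + 1) of the 23 genes had a median of 0.18 over 15 Pinot noir libraries and of 0.20 over 25 Cabernet Sauvignon libraries. At 5 to 10 g/100 ml the medians were 0.30 in Pinot noir and 0.16 in Cabernet Sauvignon (9 libraries each). At 10 to 15 g/100 ml they were 4.72 in Pinot noir (12 libraries) and 0.31 in Cabernet Sauvignon (11 libraries), and the lowest Pinot noir library, at 2.45, was above the highest of Cabernet Sauvignon, at 1.45. At 20 to 30 g/100 ml they were 5.91 in Pinot noir (28 libraries) and 0.56 in Cabernet Sauvignon (45 libraries). The Pinot noir libraries of that range ran from 4.05 to 7.53, and the highest Cabernet Sauvignon library was at 1.71.

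Within each cultivar the median of the 36 genes was higher in every library at 10 g/100 ml and above than in any library below 1 g/100 ml. At 1 to 5 g/100 ml their median was 2.15 in Pinot noir and 4.56 in Cabernet Sauvignon. The stages in this range differed. Pinot noir included green berries of day -18 of 2012 and day -14 of 2013, while every Cabernet Sauvignon library was from onset or day 0. At 5 to 10 g/100 ml it was 6.40 in Pinot noir and 5.44 in Cabernet Sauvignon. At 10 to 15 g/100 ml it was 7.34 in Pinot noir and 7.41 in Cabernet Sauvignon, and at 20 to 30 g/100 ml 7.61 in Pinot noir and 6.86 in Cabernet Sauvignon. Single samplings stood apart from these medians. Pinot noir at day 0 of 2014, with 0.93 to 1.34 g/100 ml, was at 5.13 to 5.87, and at 20 to 30 g/100 ml the lowest Cabernet Sauvignon library was at 5.60. These are descriptions over libraries that share samplings, and genes were sorted into the sets by libraries of onset and mid-ripening.

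**Figure D4:**
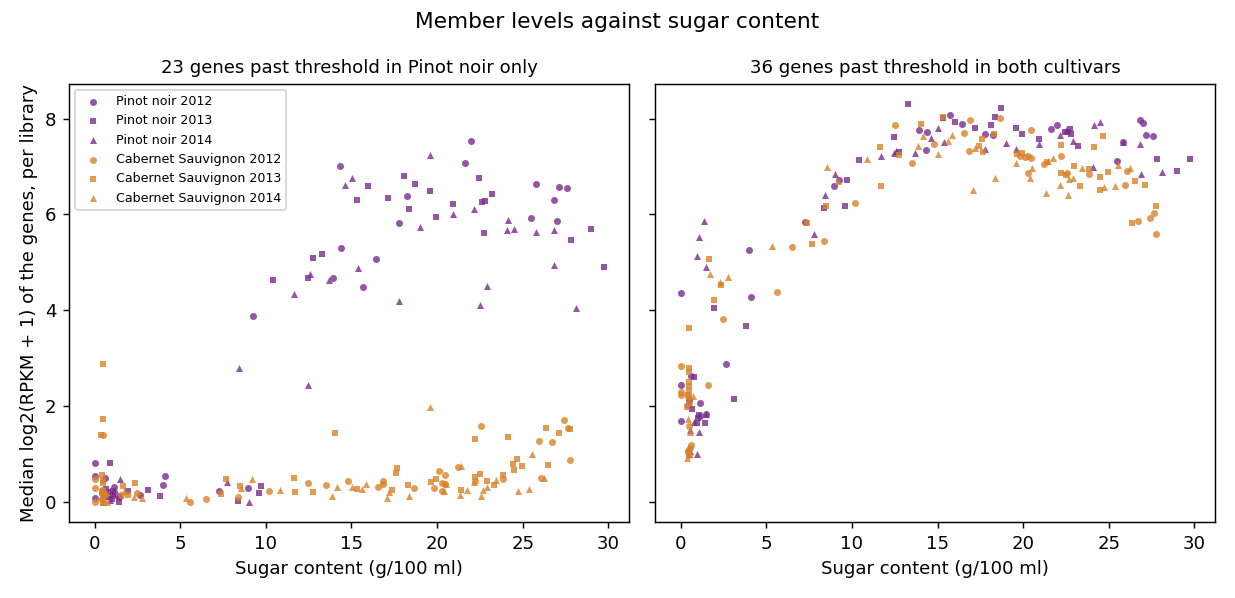
Each point is a library, at its sugar content in g/100 ml (horizontal axis) and the median log2(RPKM + 1) of the set (vertical axis), for the 23 genes that rose in Pinot noir only (left) and the 36 that rose in both cultivars (right). Libraries that carry the other cultivar's markers are left out. In the left panel Pinot noir climbs to a median of 4.72 at 10 to 15 g/100 ml while no Cabernet Sauvignon library from 5 g/100 ml up is above 1.99. In the right panel the medians are 2.15 in Pinot noir and 4.56 in Cabernet Sauvignon at 1 to 5 g/100 ml, and 7.61 in Pinot noir and 6.86 in Cabernet Sauvignon at 20 to 30 g/100 ml. At 1 to 5 g/100 ml only Pinot noir has libraries from before onset.

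The step that chose the members varied with season. It reached 1 in 52 members in 2012, 44 in 2013 and 24 in 2014 in Pinot noir, and in 36, 20 and 30 in the same seasons of Cabernet Sauvignon. Over all genes tested these shares were 1.56%, 1.26% and 0.411% in Pinot noir and 1.43%, 1.28% and 1.61% in Cabernet Sauvignon. These counts rest on the libraries of the choice and are descriptions. For the 23 genes the median step was 3.57 in 2012, 4.09 in 2013 and 1.01 in 2014 in Pinot noir, and 0.22, -0.03 and 0.08 in the same seasons of Cabernet Sauvignon. Labelled day 0 of Pinot noir stood at a mean sugar content of 8.47 g/100 ml in 2012, 9.23 in 2013 and 1.11 in 2014, and day 7 to 11 at 14.7, 11.9 and 8.40. In 2014 the median of the 23 genes was 1.35 at day 7, 3.87 at day 14 (mean sugar 12.2 g/100 ml) and 5.98 at day 21 (14.4 g/100 ml). The rise thus came 1 sampling later when counted from labelled day 0. Labelled day 0 of Cabernet Sauvignon also had little sugar in 2014, with means of 6.83, 7.84 and 2.26 g/100 ml in the 3 seasons. Its step reached 1 in 36, 20 and 30 members, so its count of 2014 was not the lowest. Whether the label or the season set the later rise in Pinot noir was not tested.

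**Figure D5:**
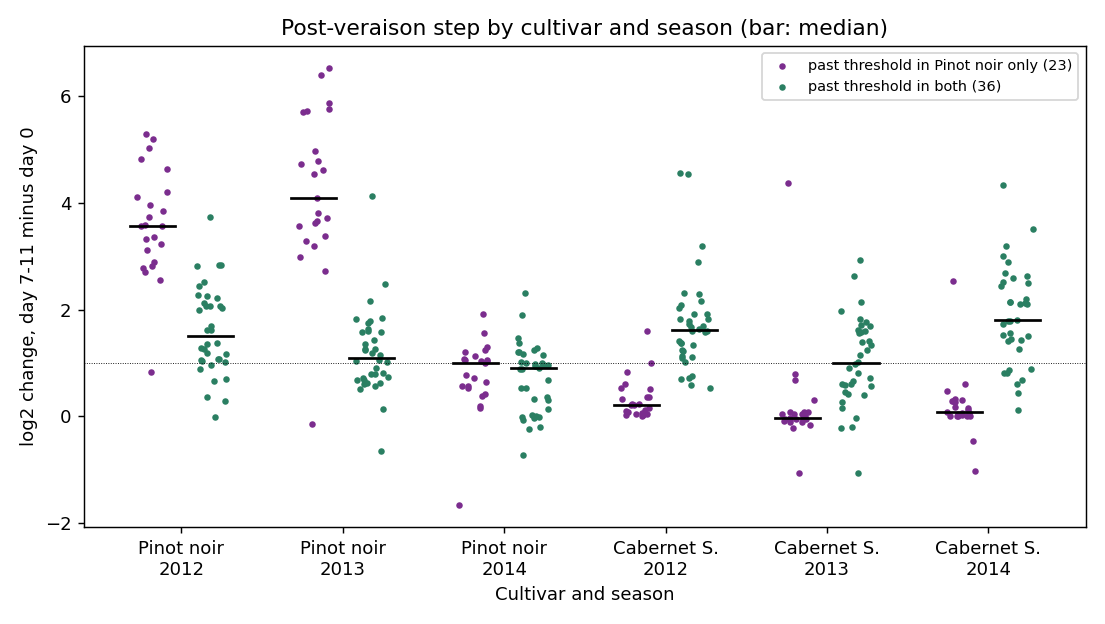
Each point is a member, at its log2 change from day 0 to day 7 to 11 (vertical axis) in each cultivar and season (horizontal axis), for the 23 genes that rose in Pinot noir only (left of each pair) and the 36 that rose in both (right), with bars at the medians and the dotted line at the threshold of 1. The 23 genes have medians of 3.57, 4.09 and 1.01 in Pinot noir and at most 0.22 in Cabernet Sauvignon.

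The mid-ripening rise of 2014 was set against the mean of 2012 and 2013 as an interaction term. It differed in 19 members (background 6.48%), of which 9 rose more in 2014 (background 2.08%) and 10 rose less (background 4.41%). All 9 belonged to the 36 genes, and 8 of the 10 to the 23. Mid-ripening of Pinot noir in 2014 was day 28. There the median log2(RPKM + 1) of the 23 genes was 4.35, against 5.98 at day 21, and it was higher again at day 35. No season count left out this sampling alone, so its part in the 8 smaller rises was not tested. VIT_05s0094g00340 rose more in 2014 by 3.97 (SE 0.71, limma adjusted p = 1.3e-06). At onset it was at 5.44, 7.78 and 1372 RPKM in Pinot noir of 2014, against 3142, 1929 and 386 RPKM in 2012 and 701, 86.7 and 552 RPKM in 2013. In Cabernet Sauvignon it was at 6.03, 23.1 and 26.3 RPKM in 2014, against 655, 9.31 and 139 RPKM in 2012 and 1896, 1535 and 1749 RPKM in 2013. In 2014 onset was thus low in 5 of 6 libraries, with 1 Pinot noir library at the level of the other seasons. In that library VIT_02s0025g04270 was at 28.6 RPKM, its highest at onset.

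The largest smaller rises of 2014 were those of VIT_18s0001g09400, with an interaction term of -2.66 (SE 0.35, limma adjusted p = 1.5e-10), and of VIT_05s0077g01550, with -2.12 (SE 0.59, limma adjusted p = 0.0017). The season count moved with the settings. It was 11 without replicate 1 of every sampling, and 29 (4 higher and 25 lower) without Cabernet Sauvignon of 2013. With the samplings of 2014 taken 1 time point later it was 23, with 0 higher and 23 lower. The component that set the libraries of 2014 apart runs along this comparison, so it and the season cannot be told apart.

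The late comparison asked how the members moved after mid-ripening. From day 28 to 32 to day 49 to 53, 11 members passed (background 3.38%), of which 1 rose (background 1.03%) and 10 fell (background 2.35%). VIT_06s0004g01990 was the one that rose, at 69.2, 169 and 683 RPKM late in Pinot noir, against 12.1, 54.6 and 221 RPKM at mid-ripening. Cabernet Sauvignon libraries were at 0, 0.699 and 3.57 RPKM late, against 0, 0 and 0.432 RPKM at mid-ripening. The windows overlapped, and the log2 change over both cultivars was 1.43 (SE 0.21, limma adjusted p = 5.2e-10).

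VIT_12s0059g00490 fell the most, to 90.1, 143 and 490 RPKM late in Pinot noir, against 460, 913 and 1383 RPKM at mid-ripening. In Cabernet Sauvignon it was at 4.22, 11.3 and 27.0 RPKM late, against 56.4, 148 and 205 RPKM at mid-ripening, without overlap. Its log2 change was -2.73 (SE 0.25, limma adjusted p = 4.3e-19). VIT_05s0049g00770 changed by -2.07 and VIT_05s0049g00840 by -1.90, and these 2 and VIT_05s0049g00550 carry the same scaffold number. VIT_08s0007g06060, of the 23 genes, changed by -1.64. Between day 21 to 22 and day 42 to 43 the level dropped by 1 or more on the log2 scale in 6 members (background 3.35%). These days were part of the choice, which barred a rise of 1 or more there. Without 2013, in which the late Cabernet Sauvignon libraries stood apart, 2 members rose and 7 fell.

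By gene ID, 32 of the 62 had another member at most 5 IDs away on the same scaffold, in 10 runs. No matching share was computed for other genes, so this count is a description. The chromosome number in the ID was 2 in 9 members, against 3.85% of all genes tested, and 5 in 11 members, against 5.52%. Other chromosome numbers were not counted. Of the 9 members, 8 lay in 1 run, and chromosome number 5 held runs of 5 and 3 members. These shares thus largely count the same neighbours again. The longest run was VIT_02s0025g04230 to VIT_02s0025g04340, with 8 members among 12 IDs, and all 8 were higher in Pinot noir at mid-ripening. In this run 4 genes rose in Pinot noir only, VIT_02s0025g04230, VIT_02s0025g04250, VIT_02s0025g04260 and VIT_02s0025g04270. The other 4 rose in both, and their levels were far apart between cultivars. VIT_02s0025g04300 was at 4638, 13277 and 21293 RPKM in Pinot noir at mid-ripening, against 51.7, 109 and 171 RPKM in Cabernet Sauvignon. VIT_02s0025g04310 was at 3976, 11379 and 12471 RPKM in Pinot noir, against 46.7, 90.8 and 138 RPKM in Cabernet Sauvignon. At veraison the cultivars had overlapped in both genes, with VIT_02s0025g04300 at 387 to 2533 RPKM in Pinot noir and 106 to 929 RPKM in Cabernet Sauvignon.

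The rest of that run and the second longest one showed the same split. VIT_02s0025g04340 was at 849, 1104 and 2144 RPKM in Pinot noir at mid-ripening, against 5.61, 10.0 and 19.1 RPKM in Cabernet Sauvignon. VIT_02s0025g04280 was at 235, 685 and 1292 RPKM in Pinot noir, against 2.96, 7.83 and 15.9 RPKM in Cabernet Sauvignon. All 5 IDs from VIT_05s0077g01530 to VIT_05s0077g01570 were members, and all 5 rose in Pinot noir only. Their medians at mid-ripening were 60.0 to 230 RPKM in Pinot noir, against 0.0743 to 0.929 RPKM in Cabernet Sauvignon. The same held for the 3 IDs VIT_06s0004g01010 to VIT_06s0004g01030, with 34.8 to 45.8 RPKM in Pinot noir, against 0.167 to 0.436 RPKM in Cabernet Sauvignon, and for VIT_03s0088g00700 and VIT_03s0088g00710.

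Neighbours did not always move together. In the run VIT_05s0094g00330 to VIT_05s0094g00350 the first 2 were higher in Pinot noir at mid-ripening and the last was lower. VIT_05s0094g00330 was at 500, 808 and 1547 RPKM in Pinot noir, against 138, 242 and 373 RPKM in Cabernet Sauvignon. VIT_05s0094g00340 was at 11007, 14709 and 20251 RPKM in Pinot noir, against 3248, 4991 and 8574 RPKM in Cabernet Sauvignon. VIT_08s0007g06040 rose in both cultivars, to 2305, 3461 and 4187 RPKM in Pinot noir, against 325, 452 and 717 RPKM in Cabernet Sauvignon, while VIT_08s0007g06060 rose in Pinot noir only. The 3 members from VIT_19s0090g01340 to VIT_19s0090g01370 did not pass between cultivars at mid-ripening. Neighbouring IDs can be copies of one gene, the assignment of reads shared between copies was not given, and the libraries do not keep strand, so values within a run may not be independent.

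For the 3 members with the largest step, likeness in pattern was measured by Pearson correlation of log2(RPKM + 1) over the 73 sampling means, which share cultivars, seasons and ripening. VIT_05s0077g01560 was most like VIT_05s0077g01570 (r = 0.998), VIT_05s0077g01540 (0.984) and VIT_05s0077g01530 (0.979). VIT_08s0007g06060 was most like VIT_07s0031g01710 (0.976), VIT_16s0013g00070 (0.968) and VIT_02s0025g04270 (0.963), on 4 different chromosome numbers with its own. VIT_00s0225g00230 was most like VIT_05s0094g00350 (0.943), VIT_19s0014g02440 (0.941) and VIT_19s0090g01340 (0.941). VIT_16s0013g00070 and VIT_19s0014g02440 were not members. Among the 23 genes the median correlation of 253 pairs was 0.943, and among the 36 that of 630 pairs was 0.732. Members were chosen, and sorted into these sets, by samplings that are among the 73. High values were therefore likely in advance, and no median was computed for other genes, so both are descriptions.

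A few members rest on scattered values. VIT_14s0066g00570 was listed at 0 in 202 of 219 libraries and at 303 to 1418 RPKM in the other 17. Its mean step of 1.47 came from Cabernet Sauvignon of 2012 (5.62) and 2014 (3.21), with 0 in the other 4 cultivar-seasons. VIT_09s0002g00440 was listed at 0 in 94 libraries and otherwise at 5.98 RPKM or more. VIT_18s0166g00060, of the 23 genes, was listed at 0 in 125 libraries and otherwise at 13.6 to 850 RPKM. An RPKM of 0 can be a failed estimate, so absence is not read from these zeros.

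The thresholds cut through a continuous range. The members just inside the post-veraison limit were VIT_06s0004g01990 and VIT_14s0066g01140, both with a step of 1.01, and the genes just outside were VIT_04s0044g01120 and VIT_03s0038g03400, both with 0.99. At the limit between day 21 to 22 and day 42 to 43, VIT_14s0066g01140 and VIT_18s0089g01320 lay just inside, both at 0.99. VIT_06s0004g02010 (1.00) and VIT_12s0034g01970 (1.05) lay just outside.

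The genes dropped by name belong to anthocyanin synthesis and transport. GST4 (VIT_04s0079g00690), a glutathione S-transferase needed for anthocyanin transport, had a post-veraison step of 1.53. UFGT (VIT_16s0039g02230), which glucosylates anthocyanidins, had 1.13, VIT_16s0050g00910 had 1.10, and 3AT (VIT_03s0017g00870), an anthocyanin acyltransferase, had 1.03. A step of 1 was reached by 0.355% of all genes tested. The list of 8 late anthocyanin genes holds these 4, known to pass since the choice drops them by name, so its count says nothing of the list. Of 6 flavonoid core genes 0 reached it (median step 0.53), as did 0 of 4 NAC factors (median 0.11). CHS3 (VIT_05s0136g00260), a chalcone synthase, came closest at 0.97, and NAC13 (VIT_02s0012g01040) had 0.29. The dropped genes also had large steps before veraison, with 4.82 for GST4, 2.97 for UFGT, 2.88 for VIT_16s0050g00910 and 1.54 for 3AT from onset to day 0. The 23 genes had 0.17 in the median over that step, with a range of -0.44 to 0.54. For the 36 genes the median was 2.15, with a range of -0.22 to 4.49, so large early steps were shared by members of that set.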

How the data were processed

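Per the labels' protocols, non-directional libraries were made from pericarp RNA. The deposited values are RPKM computed by the authors, 1 column per library, for 29971 gene IDs. TopHat2 2.0.6 and Cufflinks 2.0.2 were used, per the submitters' processing notes; genome build, annotation release and options are not given in the sources used here.

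Values were transformed to log2(RPKM + 1), which understates changes of low genes. The filter kept genes that reached an RPKM of 1 in 3 or more libraries (21425 of 27320 with a value above 0). With limma 3.58.1 (R 4.3.3; eBayes, trend and robust), 73 group means were estimated from 219 libraries, leaving 146 degrees of freedom, with Benjamini-Hochberg adjustment over all genes tested. Contrasts were equally weighted means over cultivar-seasons. SEs measure the spread of libraries within samplings, and nothing says that these came from separate vines beyond the row blocks. The code was tested on simulated data. Scale alternatives used quantile normalization and TMM factors.

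Members and lists were chosen with earlier results of these data known. Text names members with the 8 largest steps, the 6 highest levels, up to 3 higher and 3 lower per comparison, those in ID runs and those beside a threshold; others were named after their values were seen. Symbols come from published use of these IDs, not from a file, and 0 IDs matched the reference table.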

Additional observations from a re-analysis of the deposited data

Results flagged for a closer look

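The mid-ripening rise differed between Pinot noir and Cabernet Sauvignon in 39 of the 62 members by the interaction term in limma. Mean sugar content at onset was higher in Pinot noir in each season, and its part in this term was not tested. The members with the largest surplus in Pinot noir were VIT_03s0088g00710 (7.02), VIT_05s0077g01560 (6.54) and VIT_02s0025g04250 (6.25), and those with the largest deficit were VIT_05s0094g00350 (-3.53), VIT_01s0011g03670 (-2.19) and VIT_01s0146g00260 (-1.92), all as differences of log2 changes. For the season 2014, set against the average of the other seasons, the rise differed in 19 members. The largest were VIT_05s0094g00340 (3.97), VIT_05s0094g00330 (2.94) and VIT_05s0049g00770 (2.64) with a larger rise in 2014, and VIT_18s0001g09400 (-2.66), VIT_05s0077g01550 (-2.12) and VIT_02s0025g04230 (-1.86) with a smaller one.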

How the results depend on the processing

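The set itself depended on the settings. Of 62 members, a pseudocount of 0.1 gave 168 (58 shared), a pseudocount of 5 gave 32 (32 shared), TMM scale factors gave 101 (62 shared), leaving out 2013 gave 116 (48 shared) and leaving out 2014 gave 107 (54 shared). Leaving out replicates 1, 2 and 3 of every sampling in turn gave 57 to 97, the highest without replicate 3. The counts of members called in the cultivar, cultivar-rise and late comparisons stayed within 1.5 times under every alternative run. For the cultivar and cultivar-rise counts no alternative took the seasons as replicates. Their p-values were thus not set against the spread between seasons, beyond leaving out 1 season at a time. With cultivar-season differences as replicates the onset count was 0, in a fit with 6 values per gene. The mid-ripening count was 59 in Pinot noir alone and 38 in Cabernet Sauvignon alone, a split chosen after seeing the data. The season count of 19 was 29 without Cabernet Sauvignon of 2013, also chosen after seeing the data, and 11 to 21 without 1 replicate, the lowest without replicate 1; the cause was not tested. Without 2013 the cultivar term of VIT_05s0094g00330 was -0.32 and that of VIT_16s0098g00860 -0.18, both reversed. With the samplings of 2014 taken 1 time point later the season term reversed to -1.17 for VIT_01s0011g03670, -2.65 for VIT_02s0025g04300, -2.11 for VIT_02s0025g04310, -3.01 for VIT_05s0049g00770, -2.01 for VIT_05s0094g00330, -2.21 for VIT_05s0094g00340, -1.54 for VIT_05s0094g00350, -1.58 for VIT_08s0007g06040 and -3.32 for VIT_12s0059g00490, and without Cabernet Sauvignon of 2013 to -0.14 for VIT_02s0025g04310. Of 3179 single-gene values, 3025 kept their call, 142 lost it and 12 reversed. Scaling moved the median of all genes in the mid-ripening rise to 0.06 (quantile; 1784 higher and 2277 lower) and 0.01 (TMM; 1726 and 2472), against -0.22 (1072 and 3516), with 60 members higher in each. With the replicate block the 6 counts were 19, 60, 11, 43, 39 and 19, the same as without it; same-numbered libraries had a median correlation of 0.005 over 1239 pairs, so the numbers were not read as pairs. Depth is unknown, so the precision of low RPKM values cannot be given.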
